A study of Danio rerio with 24 samples.

Results

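The 150 genes described here were flat in wildtype zebrafish larvae between the last hours of the night and lights on, and high shortly after lights on. They were chosen in the wildtype samples alone, on the regularised log2 (rlog) scale of DESeq2. This scale pulls differences toward 0, here for well-counted genes too, so rlog differences understate log2 fold changes. A gene was taken when its wildtype mean at lights on was within 0.15 of its mean 3 h earlier, when each of the 4 wildtype values after lights on was above all 8 others, and when its rise was among the 150 largest. Symbols starting with per, cry, nr1d, clock, arntl, npas2, dbp, tef, nfil3 or bhlhe4 were left out. These starts cover many clock genes, and also other genes such as the crystallins. Clock genes with other symbols could be chosen: lonrf1, a gene of the clock list used here, is a member. Of 25362 genes with rlog values, 794 met both conditions, 2 of these (nr1d2b and cry3a) were left out by symbol, and the first 150 of the 792 that remained are the members.

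The study compared larvae of an AB-derived line homozygous for a 2 bp deletion in klf9 that shifts its reading frame (klf9-/-) with wildtype larvae descended from the same grandparents. RNA was taken from whole larvae at 5 days post fertilization, in pools of 6, at 3 h before lights on (ZT-3), at lights on (ZT0) and 2.5 h after it (ZT+2.5), in a cycle of 14 h light and 10 h dark, with no other treatment. Each of the 6 groups held 4 pools, and the mutant line carried 1 allele, so effects of klf9 and of linked sequence cannot be told apart. Summed estimated counts were between 41444609 and 64452247 per sample, and all 24 liver, 27 fast muscle, 28 neuron and 20 photoreceptor markers of the lists used were measured, in pools labelled as whole larvae.

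Zebrafish tissues are directly sensitive to light: opsins and flavin-containing proteins lie in many organs, and illumination switches on a transcriptional response in cultured cells and embryos that includes clock genes, DNA repair genes and genes of redox metabolism. Klf9 is a zinc-finger transcription factor, mostly a repressor, whose gene is induced by glucocorticoids and is itself under clock control. Light and time of day changed together between ZT0 and ZT+2.5, so their contributions to any value below cannot be told apart. In whole larvae, fewer cells of a type and less RNA per cell cannot be told apart either.

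Reads of klf9 itself were fewer in the mutant line. In CPM (read counts scaled to library size by TMM), klf9 in wildtype was 49.9, 35.7, 65.6 and 47.9 for the ZT-3 pools, 74.2, 57.6, 54.4 and 70.7 for ZT0, and 37.7, 15.3, 38.3 and 31.8 for ZT+2.5. The klf9-/- pools held 17.7, 19.8, 17.4 and 10.6 CPM at ZT-3, 20.8, 18.5, 19.2 and 23.2 CPM at ZT0, and 4.72, 9.98, 13.8 and 18.7 CPM at ZT+2.5. The genotypes were apart at ZT-3 and ZT0 and overlapped at ZT+2.5. The deletion does not remove the transcript, so these reads check the label only through its level.

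The wildtype course of the members is what chose them and is given as a description, with no test. Their wildtype rise from ZT0 to ZT+2.5 ran from 0.31 to 1.66 on the rlog scale with a median of 0.40, and 43 of 150 rose by at least 0.5 and 8 by at least 1. Read as ratios of mean CPM, ZT+2.5 to ZT0, the same values ran from 1.41 to 7.88 with a median of 1.66. The rlog rises were generally smaller than the log2 of such ratios: wildtype lonrf1 had a ratio of 5.00 and an rlog rise of 1.49. Just inside the limit stood si:ch73-21k16.1 (0.312), tmem106ba (0.311) and slc27a6 (0.310), and just outside it ier2b (0.310), aadacl4 (0.309) and mpp2a (0.308), all as wildtype rlog rises, so the limit cuts through a continuous range. Per sample, the median over members relative to the wildtype ZT0 mean lay between -0.03 and -0.01 at ZT-3, between -0.01 and 0.01 at ZT0 and between 0.40 and 0.43 at ZT+2.5.

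The rule used no klf9-/- values, although the rlog table it was applied to held both genotypes. Nearly all members rose in the klf9-/- samples too. By edgeR's quasi-likelihood test over 22602 genes in the 12 klf9-/- samples, with the first principal component as a covariate and Benjamini-Hochberg adjusted p at most 0.1, 142 of the 149 members tested were higher at ZT+2.5 than at ZT0 (95.3%) and 0 were lower. Over all genes tested, 8.98% were called higher and 7.05% lower. The 2029 genes behind the first share became 1267 without klf9-/- ZT0 replicate 4 and 1052 without the PC1 covariate, while the members called higher numbered 135 and 134 in those fits. The member left untested, si:dkey-242h9.3, had no reads in klf9-/-. The median log2 fold change was 0.70 over the members and 0.01 over all genes tested, and the members ran from -0.02 (scn4bb) to 3.50 (si:ch211-219a15.4).

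On the rlog scale the members' median rise in klf9-/- was 0.38, beside 0.00 over all genes, and 148 of 150 had a positive value. Without any overlap between samples, ZT+2.5 was above ZT0 for 132 members, where 5.73% of all genes were so. The 4 ZT+2.5 values were above all 8 others for 126 members (3.55% of all genes), and 109 met both conditions of the rule in klf9-/- as well (2.81% of all genes). Per-sample medians in klf9-/- lay between -0.01 and 0.05 at ZT-3, between 0.05 and 0.08 at ZT0 and between 0.46 and 0.49 at ZT+2.5. PC1 overlapped between these times in klf9-/-, with averages of 0.25 ± 0.96 (SD, n = 4) at ZT0 and -0.08 ± 1.17 (SD, n = 4) at ZT+2.5. RNA concentration there was 138, 123, 125 and 127 ng/µl at ZT0 and 109, 106, 119 and 163 ng/µl at ZT+2.5. All ZT+2.5 pools but replicate 4 were thus below every ZT0 pool.

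**Figure D1:**
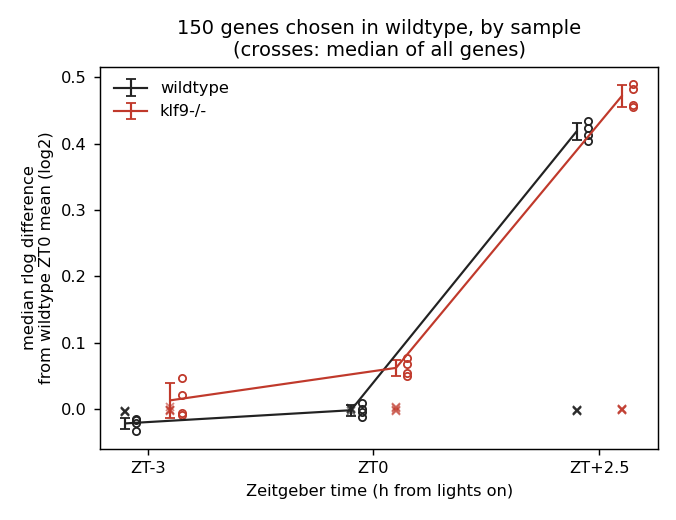
Median over the 150 members of the rlog difference from the wildtype ZT0 mean, for each of 24 samples (circles), by Zeitgeber time, with the group mean ± SD (lines, n = 4) and the median of all genes in each sample (crosses). Wildtype samples reach 0.40 to 0.43 at ZT+2.5 by choice. The klf9-/- samples, whose values the rule did not use, reach 0.46 to 0.49, while the crosses stay near 0.

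The leading member by wildtype rise was wdr76, a WD-repeat protein whose yeast counterpart Cmr1 binds damaged DNA. In wildtype its pools held 1.14, 1.47, 1.11 and 1.83 CPM at ZT-3, 1.79, 1.72, 1.71 and 1.67 CPM at ZT0, and 13.3, 13.0, 13.8 and 14.2 CPM at ZT+2.5. In klf9-/- the values were 1.21, 1.3, 1.31 and 1.37 CPM, then 1.70, 1.67, 1.68 and 1.51 CPM, then 13.1, 13.1, 14.8 and 12.6 CPM. The genotypes overlapped at each time, and the klf9-/- rise was 3.05 ± 0.09 on the log2 scale (SE, adjusted p = 1.3e-11, edgeR). The rlog rise was 1.66 in both genotypes.

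Next came lonrf1, a protein with LON and RING finger domains, and faim2b, a relative of the apoptosis inhibitor FAIM2. For lonrf1 the klf9-/- pools held 42.0, 41.6, 43.0 and 43.0 CPM at ZT0 and 188, 198, 198 and 188 CPM at ZT+2.5, against 34.5, 31.9, 34 and 35.7 CPM and then 173, 168, 171 and 169 CPM in wildtype. Its klf9-/- rise was 2.21 ± 0.06 (log2, SE, adjusted p = 6.2e-12, edgeR), and the mutant pools lay above the wildtype pools at both times. For faim2b the 4 klf9-/- pools went from 2.96, 2.95, 3.01 and 2.94 CPM to 19.5, 18.4, 16.2 and 16.5 CPM, a rise of 2.62 ± 0.08 (log2, SE, adjusted p = 4.7e-11, edgeR). PLEKHB1, a pleckstrin-homology protein known from mammalian photoreceptors, rose by 2.11 ± 0.11 in klf9-/- (log2, SE). The uncharacterised si:ch211-161h7.5 and zgc:65997 rose there by 2.19 ± 0.17 and 1.84 ± 0.12.

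The members can be read by function. The 44 named in the 8 groups that follow were grouped by their known roles after their values had been seen, and all 44 were called higher at ZT+2.5 in klf9-/- beside the 95.3% of all members given above, so the groups do not set themselves apart by that count.

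DNA repair and genome maintenance held 10 members. The largest after wdr76 was cpdp, the photolyase that uses light to split ultraviolet-induced pyrimidine dimers. It stood at 15, 14.9, 14.8 and 13.9 CPM at ZT0 and at 36.5, 37.8, 41.6 and 44.7 CPM at ZT+2.5 in wildtype, and at 13.5, 14.4, 16.0 and 15.5 CPM and 36.0, 39.4, 43.4 and 43.7 CPM in klf9-/-. The 2 genotypes overlapped at both times and had the same ratio of means, 2.74. Its klf9-/- rise was 1.44 ± 0.05 (log2, SE, adjusted p = 2.6e-10, edgeR). ercc6, the transcription-coupled repair factor altered in Cockayne syndrome, held 19.4, 18.5, 18.2 and 18.5 CPM at ZT0 and 34.8, 36.5, 33.2 and 32.3 CPM at ZT+2.5 in klf9-/-, with a rise of 0.90 ± 0.05 (log2, SE). xrcc1, the scaffold of single-strand break repair, rose by 0.57 ± 0.06 there. The recombination factors rad51b and rad52 rose by 0.86 ± 0.13 and 0.66 ± 0.13, fanci of the Fanconi anaemia pathway by 0.62 ± 0.10, mnd1 of meiotic recombination by 0.62 ± 0.12 and the telomere protein terf1 by 0.70 ± 0.09. The uracil glycosylase unga completes the group and is taken up below. In the list of DNA repair genes set for this work, 13 of 41 tested were called higher at ZT+2.5 in klf9-/- and 0 lower, with a median log2 fold change of 0.10, and 4 of the 13 were members (cpdp, ercc6, xrcc1 and unga).

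Heme and tetrapyrrole handling held 6 members, with a median klf9-/- rise of 1.3 (log2 fold change) beside 0.70 over the members. The group was formed after the values had been seen, and fech, soul5, blvra and hebp2 were among the 15 largest wildtype rises. Its median wildtype rise was 0.74 beside 0.40 over the members (rlog), so the larger klf9-/- median is a description only. fech, the ferrochelatase that inserts iron in the last step of heme synthesis, stood in klf9-/- at 2.22, 1.65, 2.07 and 2.00 CPM at ZT0 and at 7.74, 8.12, 8.19 and 7.90 CPM at ZT+2.5. Wildtype pools held 2.54, 2.38, 2.29 and 2.06 CPM and then 7.16, 7.99, 9.12 and 9.58 CPM, so the genotypes overlapped. Its klf9-/- rise was 1.99 ± 0.13 (log2, SE, adjusted p = 1.5e-07, edgeR). blvra, biliverdin reductase, rose by 1.49 ± 0.10, and hccsa.1, which attaches heme to cytochrome c, by 0.71 ± 0.09. soul5 and hebp2 encode members of the SOUL family of heme-binding proteins. soul5 reached 56.2, 56.9, 61.7 and 54.9 CPM at ZT+2.5 in klf9-/- from 19.1, 20.9, 20.0 and 20.7 CPM at ZT0, against 40.3, 41.2, 42.4 and 46.1 CPM from 13.8, 17.0, 17.8 and 15.8 CPM in wildtype. The mutant pools were thus above all wildtype pools at both times, while the ratios of means were 2.85 and 2.64. tspo, the outer mitochondrial membrane protein that binds cholesterol and porphyrins, showed the same form: 20.6, 22.9, 20.3 and 20.1 CPM at ZT0 and 43.2, 46.3, 47.6 and 40.2 CPM at ZT+2.5 in klf9-/-, and 14.5, 15.5, 15.3 and 14.7 CPM and 33.2, 32.8, 37.0 and 34.2 CPM in wildtype. Of 13 heme synthesis genes tested, 3 were higher and 1 lower at ZT+2.5 in klf9-/-, with a median log2 fold change of 0.14. The erythroid markers, of which tspo was 1 in the list used, summed to between 1273 and 1704 CPM at ZT0 and between 1386 and 1611 CPM at ZT+2.5 in klf9-/-, and 2 of 17 were called higher and 0 lower. In wildtype they summed to between 1828 and 1972 CPM at ZT0 and between 1994 and 2232 CPM at ZT+2.5, above every klf9-/- pool. Their part in the levels of these members was not tested.

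Retinoid and photoreceptor genes held 4 members. lratb.2 encodes a lecithin retinol acyltransferase, which esterifies vitamin A. In klf9-/- it held 9.37, 12.3, 11.3 and 15.6 CPM at ZT-3, 16.8, 18.7, 14.2 and 12.4 CPM at ZT0 and 55.1, 38.8, 37.4 and 35.9 CPM at ZT+2.5, and in wildtype 12.5, 12.5, 12.4 and 11.5 CPM, then 11.4, 13.1, 11.7 and 13.0 CPM, then 37.7, 35.9, 35.4 and 31.9 CPM. Replicate 1 stood above the other mutant pools at ZT+2.5. The klf9-/- rise was 1.51 ± 0.08 (log2, SE, adjusted p = 3.1e-08, edgeR). rdh5, the 11-cis-retinol dehydrogenase of the visual cycle, rose by 0.65 ± 0.07, rbp4, the plasma carrier of retinol, by 0.61 ± 0.08, and guca1b, a calcium-sensing activator of photoreceptor guanylate cyclase, by 0.79 ± 0.10. For guca1b the wildtype pools held 2.14, 2.19, 2.60 and 3.17 CPM at ZT0 and 6.99, 7.09, 5.76 and 5.27 CPM at ZT+2.5, and the klf9-/- pools 3.79, 3.73, 3.13 and 3.44 CPM and 7.09, 5.38, 5.29 and 5.49 CPM. Its rlog rise was 0.67 in wildtype and 0.38 in klf9-/-. Of 38 retinoid cycle genes tested, 13 were higher and 2 lower at ZT+2.5 in klf9-/-. Of 74 phototransduction genes and opsins, 21 were higher and 16 lower, with a median of 0.01. The summed photoreceptor markers ranged from 9216 to 11859 CPM at ZT0 and from 9307 to 11821 CPM at ZT+2.5 in klf9-/-, with 3 of 20 called higher and 5 lower.

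Both enzymes of gadusol synthesis were members. Gadusol is an ultraviolet-absorbing compound that zebrafish make themselves, through eevs, a sedoheptulose phosphate cyclase, and the neighbouring gene zgc:113054, an oxidase and methyltransferase. No gene lies between the pair in RefSeq's order (assembly GRCz12tu). zgc:113054 stood at 43.9, 42.9, 42.0 and 38.3 CPM at ZT0 and 63.5, 69.6, 73.8 and 75.5 CPM at ZT+2.5 in wildtype, and at 37.2, 40.4, 38.8 and 39.1 CPM and 67.5, 59.9, 71.5 and 68.0 CPM in klf9-/-, where it rose by 0.77 ± 0.06 (log2, SE). eevs rose by 0.41 ± 0.09 in klf9-/-, from 37.6, 38.5, 36.3 and 36.8 CPM to 56.2, 42.4, 48.9 and 48.2 CPM, against 41.2, 42.1, 31.2 and 36.9 CPM and 60.1, 54.7, 58.1 and 58.8 CPM in wildtype. Every eevs value at ZT+2.5 was above every value at ZT0 within each genotype.

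Chaperones held 6 members, led by hspa1b, an inducible Hsp70. Its wildtype pools went from 1.56, 1.09, 1.47 and 1.31 CPM at ZT0 to 10.0, 5.38, 7.99 and 7.21 CPM at ZT+2.5, and its klf9-/- pools from 1.5, 1.21, 1.44 and 1.38 CPM to 7.27, 10.3, 9.22 and 12.5 CPM. The klf9-/- rise was 2.79 ± 0.14 (log2, SE, adjusted p = 1.4e-08, edgeR). Hsp70 genes have near-identical copies, so the share of reads given to this one is uncertain. hsph1, a nucleotide exchange factor for Hsp70, rose by 0.91 ± 0.09 and fkbp4, a cochaperone of Hsp90 in steroid receptor complexes, by 0.92 ± 0.05, while dnajc28, dnajc4 and the endoplasmic reticulum chaperone calr rose by 0.95 ± 0.09, 0.79 ± 0.06 and 0.55 ± 0.04. In the wider list, 38 of 57 heat shock proteins and cochaperones were called higher at ZT+2.5 in klf9-/- and 2 lower, with a median log2 fold change of 0.22. For genes of endoplasmic reticulum folding the counts were 30 and 0 of 59.

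Prostaglandin synthesis held 3 members. ptgdsb.1 and ptgdsb.2 are adjacent copies of lipocalin-type prostaglandin D synthase, and prxl2b encodes a prostaglandin F synthase. ptgdsb.1 stood at 162, 176, 172 and 173 CPM at ZT0 and at 373, 329, 389 and 427 CPM at ZT+2.5 in wildtype, and at 254, 249, 222 and 252 CPM and 479, 364, 447 and 475 CPM in klf9-/-. The mutant pools were above the wildtype pools at ZT0 and overlapped them at ZT+2.5. The klf9-/- rises of ptgdsb.1 and ptgdsb.2 were 0.86 ± 0.09 and 0.91 ± 0.07 (log2, SE), and because the copies are similar the split of reads between them is uncertain. prxl2b was lower in klf9-/- at all 3 times: 14.1, 18.3, 15.3 and 14.2 CPM at ZT-3, 10.5, 14.6, 14.8 and 15.4 CPM at ZT0 and 23.7, 26.6, 30.9 and 28.2 CPM at ZT+2.5. Wildtype pools held 19.6, 21.3, 25.8 and 22.5 CPM, then 22.0, 18.2, 19 and 18.2 CPM, then 37.8, 37.9, 41.4 and 45.0 CPM. It rose by 0.97 ± 0.10 in klf9-/- (log2, SE, adjusted p = 2.5e-05, edgeR), and the ratio of means was 1.98 there and 2.09 in wildtype.

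**Figure D2:**
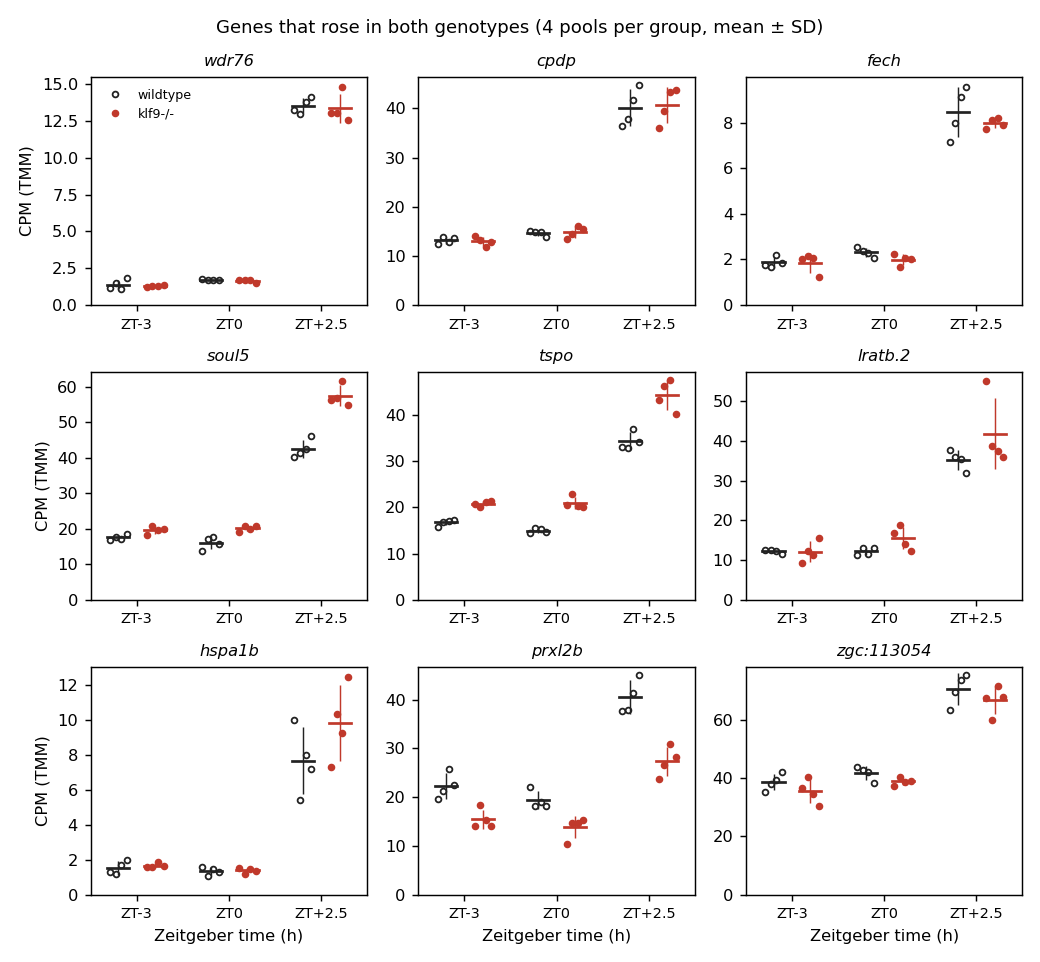
CPM of 9 members in each of the 24 pools by Zeitgeber time, wildtype in open and klf9-/- in filled circles, with mean ± SD (n = 4). All 9 were higher at ZT+2.5 in both genotypes; soul5 and tspo lie higher and prxl2b lower in klf9-/- at ZT0 and ZT+2.5.

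Redox and selenoprotein genes held 4 members and mitochondrial genes 9. nfe2l1a and nfe2l1b, which encode transcription factors of proteasome genes, rose by 0.94 ± 0.14 and 0.54 ± 0.05 in klf9-/- (log2, SE), selenoj by 0.70 ± 0.06 and msrb1a, a methionine sulfoxide reductase, by 0.50 ± 0.05. The proteasome genes themselves were called higher in 1 and lower in 1 of 44 tested. Among the mitochondrial members, the complex II subunit sdha and its assembly factors sdhaf1 and sdhaf2 rose by 0.48 ± 0.08, 0.78 ± 0.10 and 0.70 ± 0.05. uqcc3, an assembly factor of complex III, rose by 0.77 ± 0.10, the copper chaperone cox17 by 0.66 ± 0.07 and tmem177 by 0.61 ± 0.10. The import factor chchd4b rose by 0.74 ± 0.10, the rhomboid protease parla by 0.56 ± 0.08 and the mitochondrial GTPase rhot1b by 0.58 ± 0.09.

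Other lists held no member. The 150 members are a small part of 25362 genes, so a list of this size without a member says little about the members. None of 113 ribosome biogenesis genes was a member: 63 of them were called lower and 0 higher at ZT+2.5 in klf9-/-. None of the immediate early genes was a member either, although 15 of 39 tested were higher and 2 lower, and ier2b lay just outside the limit. Of the 32 lists, 13 held a member, and 20 of the 150 members were in any of them. By RefSeq symbols 127 members had an entry, all of them protein coding, as were 99.3% of the 18814 genes of the whole table with one. Mean rlog levels had a median of 8.92 over members and 8.65 over all genes. The lower quartiles were 7.77 and 6.06, so low levels were rarer among members than in the all-gene shares set beside them.

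Against the members' wildtype rise, the klf9-/- rise fell close to equality for most. The median of the klf9-/- minus the wildtype rise was -0.03 on the rlog scale, 51 members had the larger rise in klf9-/- and 99 in wildtype. A shift toward smaller values is built into the choice, since members were taken for a large wildtype rise. Applied to klf9-/- instead, the same rule gave 710 candidates and 150 genes, of which 92 were members, 61.3% of each list, and the same median difference was then 0.04. Over the 92 genes in both lists it was 0.00. The Pearson correlation of the 2 rises over the 150 genes was 0.90, and 0.73 without the 8 genes of largest wildtype rise. Genes of one pool share its depth and RNA quality, so this is a description. The 642 candidates below the limit had a median wildtype rise of 0.17 and a median klf9-/- rise of 0.14, and 443 of the 634 tested (69.9%) were called higher in klf9-/- and 0 lower.

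**Figure D3:**
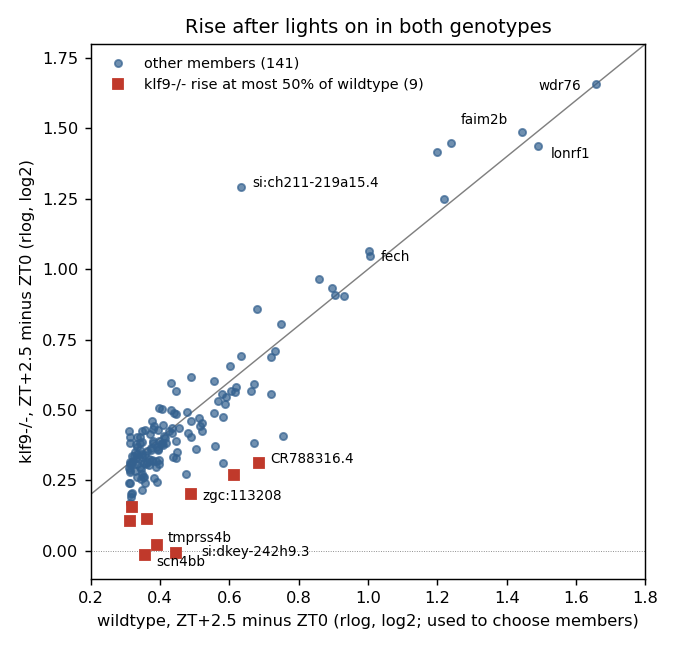
Rise from ZT0 to ZT+2.5 of the 150 members on the rlog scale, wildtype (used to choose them) on the x axis and klf9-/- on the y axis, with the line of equality. Most points follow the line, 9 (squares) have a klf9-/- rise of at most 50% of the wildtype value, and si:ch211-219a15.4 lies furthest above it.

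One member rose at least 1.5 times as much in klf9-/- as in wildtype. si:ch211-219a15.4, which is uncharacterised, went from 0.298, 0.318, 0.545 and 0.562 CPM to 3.28, 1.28, 1.11 and 1.43 CPM in wildtype and from 0.253, 0.315, 0.168 and 0.526 CPM to 2.89, 2.97, 3.35 and 6.29 CPM in klf9-/-. Wildtype replicate 1 and klf9-/- replicate 4 stood above their groups, and the genotypes overlapped at ZT+2.5 through wildtype replicate 1. The rlog rise was 0.63 in wildtype and 1.29 in klf9-/-.

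At the other end, 9 members had a klf9-/- rise of at most 50% of the wildtype value. Since wildtype values chose the members, these differences are a description and were not tested. scn4bb, a beta subunit of voltage-gated sodium channels, held 5.40, 7.67, 7.36 and 4.48 CPM at ZT+2.5 in wildtype after 4.16, 3.46, 3.58 and 4.26 CPM at ZT0. In klf9-/- it held 5.06, 3.90, 3.34 and 3.86 CPM at ZT0 and 3.27, 4.50, 4.25 and 3.71 CPM at ZT+2.5, a log2 change of -0.02 ± 0.14 (SE, adjusted p = 0.96, edgeR). tmprss4b, a membrane-bound serine protease, held 4.81, 4.80, 4.46 and 4.18 CPM at ZT+2.5 in wildtype after 2.63, 2.27, 2.64 and 3.06 CPM, and 3.60, 4.06, 2.82 and 2.91 CPM in klf9-/- after 3.99, 3.22, 2.91 and 2.92 CPM. Its klf9-/- change was 0.13 ± 0.12 (log2, SE, adjusted p = 0.60, edgeR), and every mutant value at ZT+2.5 was below every wildtype value. In RefSeq's gene order 1 gene lies between these 2 genes, and 372 and 370 genes lie between them and klf9.

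zgc:113208 kept a smaller rise in klf9-/-. Its wildtype pools went from 12.6, 14.1, 15 and 16.9 CPM to 30.3, 23.5, 20.3 and 28.3 CPM, and its klf9-/- pools from 13.7, 14.6, 12.3 and 13.6 CPM to 19.7, 17.5, 16.4 and 14.8 CPM. All mutant values at ZT+2.5 were below all wildtype values, and within klf9-/- the rise was 0.38 ± 0.06 (log2, SE, adjusted p = 0.00084, edgeR). It lies 128 genes from klf9 in the RefSeq order. A further member of the 9, the uracil DNA glycosylase unga, is on the same chromosome with 1335 genes between. Of the 6 among these 9 with a place in that order, 4 shared the chromosome of klf9, and 5 of the other 124 members with a place did. Over all genes with rlog values and a place in that order, 5.69% were on that chromosome. Among those other members, si:ch211-225b11.1, with 175 genes between, had rlog rises of 0.68 in wildtype and 0.86 in klf9-/-. For ift22, with 150 genes between, the rises were 0.35 and 0.27. Linkage to the mutant allele as a source of these differences was not tested.

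The other members of the 9 differed in form. si:dkey-242h9.3 had 0 counts in all 12 klf9-/- pools, where 3 counts would have been between 0.0495 and 0.0726 CPM. Its wildtype pools held 1.05, 1.03, 0.691 and 1.41 CPM at ZT-3, 0.596, 0.749, 0.945 and 1.24 CPM at ZT0 and 2.07, 2.34, 1.51 and 1.72 CPM at ZT+2.5, so its mean over the wildtype pools was at least 17.6-fold higher than that floor of 3 counts per library. si:dkey-30j22.1 was at 36.5, 44.3, 31.2 and 30.6 CPM at ZT+2.5 in wildtype and at 24.9, 25.7, 19.7 and 28.6 CPM in klf9-/-, with no overlap. Its klf9-/- change was 0.16 ± 0.13 (log2, SE, adjusted p = 0.52, edgeR), and without klf9-/- ZT+2.5 replicate 3 it was 0.28 with adjusted p = 0.063.

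In vhl and si:ch211-103a14.5 the smaller rise went with a higher level at ZT0. vhl, the ubiquitin ligase subunit that marks hypoxia-inducible factor for degradation, held 6.93, 8.23, 6.40 and 6.76 CPM at ZT0 in klf9-/-, above 4.77, 5.81, 5.49 and 6.03 CPM in wildtype, and the genotypes overlapped at ZT-3. At ZT+2.5 the values were 9.53, 7.85, 7.42 and 7.57 CPM in klf9-/- and 9.86, 8.04, 8.92 and 8.03 CPM in wildtype. si:ch211-103a14.5 followed the same course, with 2.96, 2.42, 1.68 and 2.13 CPM at ZT0 in klf9-/- against 1.07, 1.14, 0.891 and 1.5 CPM in wildtype. CR788316.4 and CR788316.1 are named for the same clone, replicate 1 was the highest at ZT+2.5 for both in both genotypes, and the split of reads between them is uncertain. CR788316.4 went from 6.37, 8.47, 5.51 and 7 CPM to 15.4, 5.44, 9.72 and 10.5 CPM in klf9-/- and from 6.47, 4.83, 3.85 and 4.55 CPM to 15.4, 7.25, 10.9 and 12.6 CPM in wildtype, overlapping at both times. In klf9-/- its change of 0.62 ± 0.27 (log2, SE, adjusted p = 0.19, edgeR) became 0.85 with adjusted p = 0.013 without klf9-/- ZT+2.5 replicate 2. The calls of the klf9-/- rise were not stable for vhl (0.24 ± 0.08, adjusted p = 0.061), unga (0.33 ± 0.11, adjusted p = 0.072), si:ch211-103a14.5 (0.60 ± 0.20, adjusted p = 0.079) and CR788316.1 (0.76 ± 0.26, adjusted p = 0.091, log2, SE, edgeR). They were lost when single libraries were left out, 5, 7, 8 and 8 of the 12 respectively, with adjusted p up to 0.26, 0.35, 0.23 and 0.34. For vhl these were ZT0 replicates 1, 3 and 4 and ZT+2.5 replicates 1 and 4. For unga they were ZT-3 replicate 2, ZT0 replicates 1, 2 and 4 and ZT+2.5 replicates 1, 3 and 4. For si:ch211-103a14.5 they were ZT-3 replicates 2 and 3, ZT0 replicates 2, 3 and 4 and ZT+2.5 replicates 1, 2 and 3, and for CR788316.1 ZT-3 replicates 1 and 2, ZT0 replicates 1, 3 and 4 and ZT+2.5 replicates 1, 3 and 4. Further members lost the call in such fits: plekhs1 in 6, BX936337.1 in 7, plin6 in 4 and CU467110.1 in 2. For si:ch73-170d6.2 and zgc:110339 it was lost in 1 each. Without the PC1 covariate the calls of vhl, unga, si:ch211-103a14.5 and CR788316.1 were lost too (adjusted p = 0.43, 0.20, 0.17 and 0.31, edgeR). Those of fkbp16 (0.20) and unc119.2 (0.21) were lost only in that fit. vhl and CR788316.1 also lost the call with all 24 samples and with only the 8 samples compared, and unga with those 8.

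**Figure D4:**
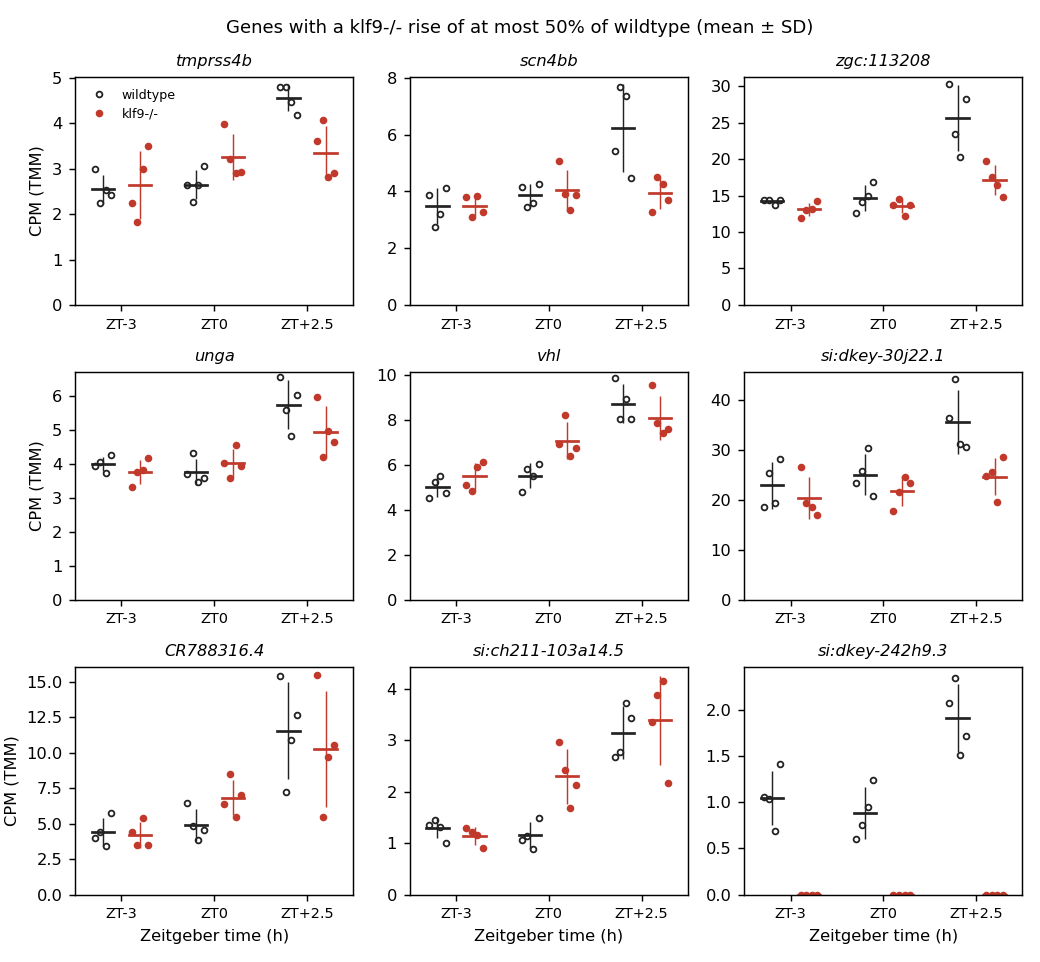
CPM of the 9 members with a klf9-/- rise of at most 50% of the wildtype value, in each of the 24 pools by Zeitgeber time (open, wildtype, filled, klf9-/-), with mean ± SD (n = 4). tmprss4b, scn4bb, si:dkey-30j22.1 and CR788316.4 were not called changed from ZT0 to ZT+2.5 in klf9-/-. vhl and si:ch211-103a14.5 start higher at ZT0, and si:dkey-242h9.3, which was not tested, is at 0 in every klf9-/- pool.

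Beside scn4bb, tmprss4b, si:dkey-30j22.1 and CR788316.4, the members not called higher in klf9-/- were dio1, irf1b and timp4.3. These 3 had larger CPM values in klf9-/- than in wildtype at ZT0. dio1, the deiodinase of liver that acts on thyroid hormone, stood at 11.8, 15.4, 14.3 and 11.6 CPM at ZT-3, 18.3, 22.5, 17.8 and 14.6 CPM at ZT0 and 18.1, 23.7, 26.1 and 24.1 CPM at ZT+2.5 in klf9-/-. In wildtype it stood at 8.08, 7.88, 9.48 and 7.33 CPM, then 9.58, 8.45, 9.78 and 8.56 CPM, then 11.5, 12.9, 15.9 and 15.7 CPM, so the genotypes were apart at all 3 times. Its klf9-/- change after lights on was 0.33 ± 0.15 (log2, SE, adjusted p = 0.20, edgeR), with adjusted p = 0.065 without klf9-/- ZT0 replicate 2 and 0.067 without klf9-/- ZT+2.5 replicate 1. For irf1b, an interferon regulatory factor, the change was 0.42 ± 0.18 (adjusted p = 0.18), and 0.65 with adjusted p = 0.0074 without klf9-/- ZT0 replicate 2. For timp4.3, a metalloproteinase inhibitor, it was 0.38 ± 0.17 (adjusted p = 0.18), and 0.48 with adjusted p = 0.093 without klf9-/- ZT+2.5 replicate 3.

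Before lights on, 123 members met the wildtype limit of 0.15 in klf9-/- too, 24 were higher at ZT0 than at ZT-3 by more than that and 3 lower. Shares of all genes at this limit were not counted in klf9-/-, so these 3 counts are a description. By the quartiles that follow, most genes are this flat there, so the count of 123 does not set the members apart. The quartiles of this klf9-/- difference were -0.05 and 0.05 over all genes, and -0.03 and 0.12 over the members. In wildtype, 22414 of 25362 genes met the limit when the separation of samples was not required, with the excluded symbol starts not counted among the 22414. By the edgeR test within klf9-/-, 37 of 149 members were higher at ZT0 than at ZT-3 (24.8%) and 5 lower (3.36%), where 9.64% of all genes tested were higher and 6.94% lower. The medians were 0.10 over the members and 0.00 over all genes tested (log2 fold change). In wildtype, 35 of the 37 also had a positive difference, within the limit that chose them. The wildtype difference had a median of 0.03 over all members (quartiles -0.03 and 0.07). Over all genes the median was 0.00 (quartiles -0.04 and 0.06). The tests before and after lights on share the ZT0 samples. The count of 37 fell to 23 without ZT-3 replicate 1, to 22 without ZT0 replicate 2 and to 24 without ZT0 replicate 4, and to 13 without the PC1 covariate. The count of 5 fell to 3 without ZT-3 replicate 2, ZT-3 replicate 4 or ZT0 replicate 3, and to 2 without ZT0 replicate 2, and it was 0 without the PC1 covariate or at a log2 fold change of at least 0.5.

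The smallest p-values for that early step belonged to eef1a1a, rdh5 and lonrf1. At ZT-3 lonrf1 held 30.5, 30.3, 30.6 and 36.0 CPM in klf9-/- and 30.7, 29.3, 28.9 and 26.3 CPM in wildtype. In both genotypes every ZT0 value given above was higher than every ZT-3 value. The wildtype rlog difference of lonrf1 was 0.14, just within the limit, beside 0.24 in klf9-/-. eef1a1a, a translation elongation factor, stood at 43.3, 45.4, 49.4 and 53.9 CPM at ZT-3, 71.8, 67.5, 56.3 and 56.4 CPM at ZT0 and 94.1, 94.5, 85.4 and 80.6 CPM at ZT+2.5 in klf9-/-. The early step was 0.39 ± 0.05 and the later 0.55 ± 0.05 (log2, SE, adjusted p = 9.7e-05 for the early step, edgeR). Its wildtype pools held 49.9, 47.5, 47.4 and 35.4 CPM, then 45.6, 44.6, 47.8 and 58.3 CPM, then 82.7, 81.1, 71.6 and 69.7 CPM. rdh5 climbed in 2 steps in klf9-/-, from 27.5, 26.2, 24.3 and 33.0 CPM to 42.3, 42.3, 44.9 and 37.8 CPM and to 71.5, 60.7, 61.8 and 62.8 CPM, with an early step of 0.59 ± 0.07 (adjusted p = 0.00013). In wildtype it went from 24.7, 26.9, 29.9 and 27.0 CPM to 31.6, 31.5, 31.5 and 29.2 CPM and to 43.5, 48.7, 46.5 and 43.5 CPM, and the mutant pools were above the wildtype pools at ZT0 and ZT+2.5. msrb1a, rabep2, tmem106ba, clk4a, vhl, calr and si:ch211-103a14.5 were the other 7 of the 10 smallest, with early steps between 0.20 (calr) and 0.99 (si:ch211-103a14.5). Among the 5 that were lower at ZT0, zcchc14, a zinc-finger protein, changed most, by -0.47 ± 0.11 (log2, SE, adjusted p = 0.011, and 0.11 without the PC1 covariate, edgeR). The calls of the others did not hold when single libraries were left out: naglu lost it without ZT-3 replicate 1 or ZT0 replicate 1 or 4 (adjusted p up to 0.15), neurl2 without ZT-3 replicate 4 or ZT0 replicate 2 or 3 (up to 0.16), mss51 without ZT-3 replicate 2, 3 or 4 or ZT0 replicate 2 or 3 (up to 0.18), and crebrf without any of the ZT-3 or ZT0 pools or ZT+2.5 replicate 1 (up to 0.24).

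Levels differed between genotypes for a minority of members. On the rlog scale the median klf9-/- minus wildtype difference moved from 0.03 (ZT-3) through 0.06 (ZT0) to 0.04 (ZT+2.5), beside 0.00 at each time over all genes. Without overlap between samples, klf9-/- was higher for 19 members at ZT-3 (12.7%, beside 4.19% of all genes), for 33 at ZT0 (22.0%, beside 5.86%) and for 16 at ZT+2.5 (10.7%, beside 3.47%), and lower for 4, 3 and 6 (beside 4.22%, 5.00% and 4.18%). All wildtype values entered the choice, and a low wildtype ZT0 value favoured it, so no test is given. In the 150 genes chosen by the same rule in klf9-/-, the median difference was 0.02, 0.01 and 0.05 at the 3 times, and klf9-/- was higher without overlap for 10, 15 and 17 genes and lower for 7, 4 and 4.

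At both ZT-3 and ZT0, 17 members were apart, 15 of them higher in klf9-/- (beside 1.46% of all genes) and 2 lower (si:dkey-242h9.3 and prxl2b, beside 380 of 25362 genes, 1.5%). Of the 15, 6 were higher at ZT+2.5 as well (beside 0.793% of all genes higher at all 3 times), and both that were lower stayed so (beside 0.856%). Those with the largest difference were dio1, CU467110.1, slc25a47a, plekhs1, irf1b, msrb1a, tspo and timp4.3. slc25a47a, a mitochondrial carrier, had rlog rises of 0.48 in wildtype and 0.27 in klf9-/-, and plekhs1, a pleckstrin-homology protein, of 0.35 and 0.26. msrb1a rose by 0.39 and 0.30 and CU467110.1 by 0.38 and 0.26. These 4 thus stood higher in klf9-/- at ZT-3 and ZT0 and had smaller rlog steps after lights on. The calls of that klf9-/- step for plekhs1 and CU467110.1 were lost when some single libraries were left out, as given above. The liver expresses dio1 and slc25a47a, and the 24 liver markers summed to 4000 to 7816, 6074 to 9535 and 3612 to 10350 CPM at the 3 times in wildtype and to 5201 to 11347, 8025 to 11487 and 7568 to 11838 CPM in klf9-/-. Within klf9-/-, 14 of these markers were called higher and 0 lower at ZT0 against ZT-3, and 1 higher and 1 lower at ZT+2.5 against ZT0. Their part in the levels of these members was not tested.

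**Figure D5:**
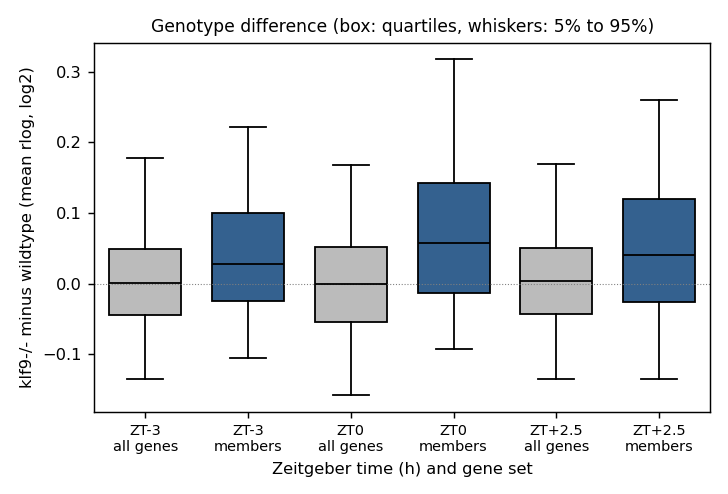
Difference of klf9-/- from wildtype group means (rlog) at ZT-3, ZT0 and ZT+2.5 for all 25362 genes (grey) and the 150 members (blue). Boxes are quartiles with the median and whiskers span 5% to 95% of genes; the members' medians are 0.03, 0.06 and 0.04.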

How the data were processed

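Single-end libraries of 24 larval pools were sequenced. Per the methods and the labels, the authors trimmed reads with Trim Galore 0.6.5, estimated expression with RSEM 1.3.3 and STAR 2.7.5c on Ensembl release 101, and summed the IDs of one symbol. They deposited expected counts, used here rounded to whole numbers, and log2 values from the rlog transform of DESeq2 1.30.1. Deposited tables of their own genotype comparisons (fold changes and p-values) were not used. The stated methods do not say that strand was used in counting.

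Members were chosen on the rlog table. CPM used TMM factors from edgeR 4.0.16 over 24 samples. The time tests were fitted to the 12 klf9-/- samples over 22602 genes (edgeR quasi-likelihood, robust, low-count filter filterByExpr, time plus PC1 of the 24 samples). Calls were made at Benjamini-Hochberg adjusted p at most 0.1. PC1 was recalculated here from the rlog values and held 21.7% of the variance. The study attributes its own PC1 largely to RNA extraction, and that source was not tested for the PC1 used here. On simulated counts for this fit (22602 genes), 82.4% of changed genes with a log2 fold change of 1 were recovered and 7.35% of calls were false. The simulated counts were independent between genes, with 200 genes changed and no PC1 effect. That false share therefore need not hold for the calls on the real counts. R 4.3.3, limma 3.58.1, DESeq2 1.42.0 and Python 3.11.15 were used. In the main fit, p-values set the change between times against the spread between pools that remained after PC1 was fitted. The pools came from a single experiment.

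Genes given in detail were drawn from the 15 with the largest wildtype rise, the 10 largest and 10 smallest klf9-/- rises, the 10 smallest p-values before lights on, 3 on each side of the limit, those apart between genotypes at ZT-3 and ZT0 (up to 10), members of the gene lists (up to 6 a list) and klf9. Of the genes so marked, dhrs12 and oaz2a are not described above, fkbp16 only by its call, and hebp2 without values. Other genes were named for their roles after their values were seen. The members and gene lists were chosen with earlier results of these data known. RefSeq (GRCz12tu) served for names and gene order only: 130 members matched by symbol or synonym.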

Additional observations from a re-analysis of the deposited data

Results flagged for a closer look

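Across 198 groups of 4 pools (33 genes with values per pool), 15 had 1 pool far from the other 3, where about 1 in 20 groups is marked by chance. All values are CPM. In klf9-/- at ZT+2.5, replicate 1 stood high for lratb.2 (55.1, others 35.9 to 38.8) and guca1b (7.09, others 5.29 to 5.49), and replicate 4 for si:ch211-219a15.4 (6.29, others 2.89 to 3.35). In klf9-/- at ZT0, replicate 4 was low for wdr76 (1.51, others 1.67 to 1.70), replicate 2 high for tspo (22.9, others 20.1 to 20.6), replicate 3 low for ptgdsb.1 (222, others 249 to 254) and replicate 1 low for prxl2b (10.5, others 14.6 to 15.4). In klf9-/- at ZT-3, replicate 4 was high for lonrf1 (36.0, others 30.3 to 30.6) and low for fech (1.21, others 2.02 to 2.13).

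In wildtype, replicate 1 stood high at ZT+2.5 for si:ch211-219a15.4 (3.28, others 1.11 to 1.43) and at ZT-3 for guca1b (3.28, others 2.69 to 2.76). Replicate 4 was low at ZT-3 for lratb.2 (11.5, others 12.4 to 12.5) and eef1a1a (35.4, others 47.4 to 49.9) and at ZT0 for rdh5 (29.2, others 31.5 to 31.6), and replicate 3 was low at ZT-3 for zgc:113208 (13.8, others 14.4 to 14.4). Of the values that stood high, those at ZT+2.5 of lratb.2, guca1b and si:ch211-219a15.4 exceed the others of their group by the largest ratios. The klf9-/- rise of each of these 3 genes was called under every alternative tried. Low values are not part of that ranking, and fech at klf9-/- ZT-3 lay further from its group by ratio than guca1b did.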

How the results depend on the processing

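The count of members higher at ZT+2.5 than at ZT0 in klf9-/- stayed within 1.5 times of 142 under every alternative, and 130 members were called in all 22 fits (DESeq2 called 142). Leaving out 1 library gave 134 to 142 members (0 lower), 1267 to 2133 genes higher (lowest without klf9-/- ZT0 replicate 4) and 1219 to 1982 lower. Without the PC1 covariate 1052 genes were higher and 711 lower, and with a log2 fold change of at least 0.5, 511 and 320, against 2029 and 1594. Before lights on, 2179 genes were higher and 1568 lower; these became 1046 and 580 without PC1 (members 13 and 0) and 591 and 239 at a fold change of at least 0.5 (members 5 and 0). At adjusted p at most 0.05 members were 23 and 3, and 3 were lower with all 24 samples. Leaving out 1 library gave 1653 to 2474 genes higher, 1037 to 1850 lower, and 22 to 40 members higher, 2 to 7 lower.

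scn4bb turned to 0.08 without klf9-/- ZT0 replicate 1 and to 0.094 without ZT+2.5 replicate 1, neither called. Choosing on log2 CPM instead of rlog kept 89 of 150 members; leaving out 1 wildtype library kept 127 to 144. The members' median klf9-/- rise was 0.70 as edgeR log2 fold change. On the rlog scale, which pulls differences toward 0, it was 0.38, and 0.37 to 0.39 with 1 library left out. The cause of the other changes was not tested.

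Same-numbered klf9-/- pools had positive correlations between ZT0 and ZT+2.5 (0.39, 0.07, 0.19 and 0.37). Between ZT-3 and ZT0 they were negative (-0.40, -0.12, -0.10 and -0.40). Since the sign changed, replicate numbers were not taken as pairs. PC1 ran with replicate number in klf9-/-. From replicate 1 to 4 it fell at ZT0 (1.29 to -0.73) and ZT+2.5 (1.37 to -1.12) and rose at ZT-3 (-0.88 to 1.79). With the replicate block, 140 members were higher at ZT+2.5, dio1 was then called (0.34, adjusted p = 0.090), CR788316.1, plin6 and vhl were not, and 3 were lower at ZT0.

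Motifs in promoters were not run, since no genome or promoter table was used here.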
